A study of Mus musculus with 7 samples.

Results

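NRF2, the transcription factor encoded by Nfe2l2, and 9 enzymes of the antioxidant defence (Hmox1, Nqo1, Gclc, Gclm, Txnrd1, Srxn1, Sod1, Sod2 and Cat) were followed in lung endothelial cells of mouse embryos with and without Sash1. These 10 genes were taken by symbol from the array's annotation, among 22180 genes that had a probe set with 1 symbol. All 10 had a single such probe set and all 10 passed the filter on dim genes, which left 16637 genes for testing. The study set 3 samples labelled wild-type against 4 labelled Sash1-ko (Sash1-/-), all littermates on a C57BL/6 background at E18.5, shortly before birth, and its title ties endothelial Sash1 to nitric oxide signalling and surfactant. The labels name no treatment or transgene for either genotype and do not describe how the Sash1 allele was made. Viable lung cells positive for CD31 and negative for CD45 and CD326 were sorted, and RNA was amplified from them and measured on 1 Affymetrix array per sample. The labels do not say whether each sample came from a separate embryo, so the p-values measure the spread between these arrays, which may be partly technical.

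NRF2 is held in the cytoplasm and marked for degradation by KEAP1. Oxidants and electrophiles release it, and in the nucleus it pairs with a small MAF protein on antioxidant response elements, sites that the repressor BACH1 can also occupy. Its targets make glutathione, recycle thioredoxin and peroxiredoxin, reduce quinones and break down haem. Because this control acts largely on the NRF2 protein, the transcripts of its targets are commonly read as its output, whereas superoxide dismutases and catalase are less strictly tied to it. In endothelium, superoxide consumes nitric oxide, and the dismutases remove superoxide.

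The core letters of the antioxidant response element, TGACNNNGC, were looked for on both strands of RefSeq promoter windows (250 bases before to 50 after a transcription start, GRCm38.p6), to show which of these genes carry them next to a start. Windows were at hand for 8 of the 10 genes (10 windows, of which Txnrd1 has 3), and Hmox1 and Gclc had none. Of all 32851 windows, 12.4% held the letters, and 5 of the 10 windows of these genes did. Each stretch is given 5′ to 3′ on the strand that reads TGACNNNGC, with that match in capitals and 10 bases on either side.
Nfe2l2: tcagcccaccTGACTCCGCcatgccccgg
Gclm: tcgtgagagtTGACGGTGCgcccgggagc
Txnrd1: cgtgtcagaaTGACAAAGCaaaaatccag
Srxn1: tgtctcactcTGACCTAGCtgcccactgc
Sod1: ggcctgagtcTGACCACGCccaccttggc
The Nfe2l2 stretch lies at chr2:75704885-75704913 on the minus strand, with the middle of the match 236 bases before the start. That of Gclm lies at chr3:122245413-122245441 (minus strand, 130 bases before the start), and that of Sod1 at chr16:90220696-90220724 (minus strand, 52 bases before the start). The Txnrd1 match is in the second of its windows, at chr10:82859104-82859132 (minus strand, 88 bases before that start). The Srxn1 match lies past the start, in the transcribed part, at chr2:152105542-152105570 (minus strand, 32 bases after it). None of these 5 stretches also held TGANTCA, the letters of an AP-1 site. A match of letters is a description of the sequence and no evidence of binding, and windows of Nqo1, Cat and Sod2 without one say nothing of sites farther away.

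Before any comparison, Sash1 itself was read on every array. Its log2 signal was 9.02, 8.73 and 8.33 in the samples labelled wild-type 1, 2 and 3, as they are called below, and 8.29, 8.21, 8.68 and 8.13 in those labelled Sash1-ko 1 to 4. Wild-type 3 thus lay near the Sash1-ko arrays and Sash1-ko 3 near wild-type 2, against their labels, although the deleted part of Sash1 is not named and a probe set outside it checks nothing. Every direction below therefore rests on the labels, and each difference was also computed without these 2 arrays, a choice made after seeing the data. Pecam1, which encodes CD31, was at 11.03 to 11.21 on all arrays. Ptprc (CD45) and Epcam (CD326) were lowest on Sash1-ko 4, at 3.51 and 4.06. Some transcripts of other cells were also bright. Epithelial Sftpc was at 10.2 on Sash1-ko 4 and at least 11.86 on every other array. Fibroblast Col1a2 was at 9.61 to 10.59. Marker averages per array were 10.06 to 10.29 (endothelial), 6.36 to 8.33 (lung epithelial) and 6.93 to 7.68 (fibroblast and mural). The purity of the sorted cells was not tested. Over all 16637 genes, limma called 0 at an adjusted p under 0.05 (0% of those tested), 556 (3.34%) had an unadjusted p under 0.05, and the labels did not overlap in 408 (2.45%). Leaving out wild-type 2 brought that count of 556 to 295, leaving out wild-type 3 brought it to 1314, and leaving out wild-type 3 with Sash1-ko 3 brought it to 1779.

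No member of the group differed between the labels beyond the spread between arrays. Of the 10 genes, 0 were called, 0 had an unadjusted p under 0.05 and 0 were free of overlap between the labels, against backgrounds of 0%, 3.34% and 2.45%. Differences, given throughout as Sash1-ko minus wild-type on the log2 scale, were above 0 for 6 genes and below 0 for 4. Their median was 0.01, beside 0.02 over all genes tested. The extremes were Gclc at -0.39 and Cat at 0.27. Precision varied between the genes. The 95% confidence interval reached 0.21 log2 units to either side for the tightest gene, 0.30 for the middle of the group and 0.83 for Gclc. Differences larger than these could still go uncalled, since calling used p-values adjusted over 16637 genes and the intervals are not adjusted.

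**Figure D1:**
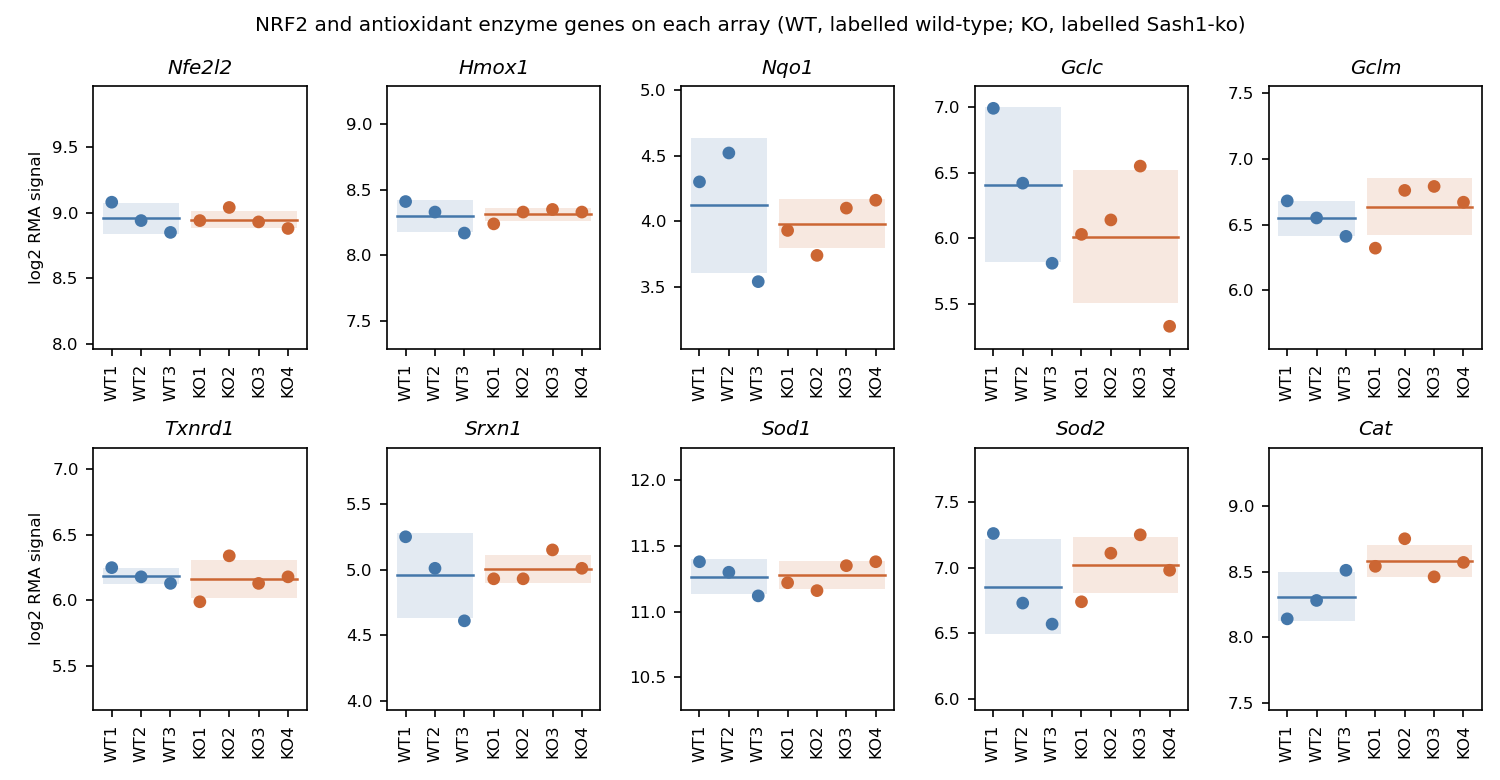
Log2 RMA signal (vertical axis, a span of 2 log2 units in every panel) of the 10 genes on each of 3 arrays labelled wild-type (WT, blue) and 4 labelled Sash1-ko (KO, orange); lines are group means and bands 1 SD to either side. The labels overlap in every panel, Nfe2l2, Hmox1 and Sod1 span less than 0.3 log2 units over all arrays, and Gclc spans 1.66.

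Nfe2l2, the regulator, was among the steadiest transcripts on these arrays. Its log2 signal was 9.08, 8.94 and 8.85 in the samples labelled wild-type and 8.94, 9.04, 8.93 and 8.88 in those labelled Sash1-ko. The whole set lay within 0.23 log2 units, a range that only 6.90% of tested genes undercut, and every Sash1-ko value fell inside the wild-type range. The difference was -0.01 (SE 0.09, 95% confidence interval -0.22 to 0.20), with a limma adjusted p of 1.0. On the linear scale the Sash1-ko level was 99.4% of the wild-type level, and the interval ran from 85.8% to 115%. Its sign turned without wild-type 1 (0.05) or Sash1-ko 4 (0.01), and with median centring (0.05).

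Hmox1 encodes haem oxygenase 1, which splits haem and is a strongly inducible NRF2 target that BACH1 represses. It measured 8.41, 8.33 and 8.17 in the samples labelled wild-type and 8.24, 8.33, 8.35 and 8.33 in those labelled Sash1-ko. Here too the Sash1-ko arrays sat inside the wild-type range, and 3 of the 4 lay within 0.02 log2 units of each other. The difference of 0.01 (SE 0.09, interval -0.20 to 0.22, limma adjusted p = 1.0) put the Sash1-ko level at 101% of wild-type, with bounds of 87.1% and 116%. Leaving out wild-type 3 turned it to -0.06, and leaving out wild-type 3 and Sash1-ko 3 to -0.07 (interval -0.30 to 0.16).

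Nqo1, the quinone reductase often used as a readout of NRF2, was a dim transcript here. Values were 4.30, 4.52 and 3.54 in the samples labelled wild-type and 3.93, 3.74, 4.10 and 4.16 in those labelled Sash1-ko. Wild-type 1 and 2 were higher than all Sash1-ko arrays and wild-type 3 was lower than all of them, so the wild-type range of 0.98 enclosed the Sash1-ko range of 0.42. The difference of -0.14 (SE 0.24, interval -0.70 to 0.42) had an adjusted p of 0.982 in limma. Leaving out wild-type 2 turned it to 0.06 and leaving out wild-type 3 moved it to -0.43. It was -0.47 (interval -0.89 to -0.05, adjusted p = 0.423) when wild-type 3 and Sash1-ko 3 were both left out. Its signal lay close to the median of all probe sets on an array (3.86 to 4.03).

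Gclc and Gclm encode the catalytic and modifier subunits of glutamate-cysteine ligase, the first and rate-limiting enzyme of glutathione synthesis, and the pair behaved differently from array to array. Gclc measured 6.99, 6.42 and 5.81 in the samples labelled wild-type and 6.03, 6.14, 6.55 and 5.33 in those labelled Sash1-ko. Wild-type 1 was highest and Sash1-ko 4 lowest, a range of 1.66 log2 units that exceeded that of 97% of tested genes. Gclm measured 6.68, 6.55 and 6.41 against 6.32, 6.76, 6.79 and 6.67, a range of 0.47. Sash1-ko 4, the lowest array for Gclc, was near the middle for Gclm.

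The Gclc difference of -0.39 (SE 0.35, interval -1.22 to 0.43, limma adjusted p = 0.971) was the widest of the group and did not pass. It came to -0.10 without wild-type 1, -0.17 without Sash1-ko 4, -0.69 without wild-type 3 and -0.87 (interval -1.70 to -0.04, adjusted p = 0.449) without wild-type 3 and Sash1-ko 3. The Gclm difference was 0.09 (SE 0.14, interval -0.24 to 0.41, adjusted p = 0.975), and it ranged from 0.02 without wild-type 3 to 0.19 without Sash1-ko 1.

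Some lists of markers of other cells and of handling stress were high or low on the same arrays as Gclc. The 14 immediate early and dissociation stress genes, transcripts that respond within minutes to cell handling, averaged 9.08, 8.85 and 7.52 in the samples labelled wild-type and 8.69, 7.47, 9.37 and 6.87 in those labelled Sash1-ko. The 12 lung epithelial markers, all measured, averaged between 7.34 and 8.33 on wild-type arrays and between 6.36 and 8.13 on Sash1-ko arrays, lowest on Sash1-ko 4. Not every marker was low on that array. Lamp3 was at 2.97 and Sftpa1 at 4.70 there, but Hopx, at 5.61, had its highest Sash1-ko value and Ager was at 9.99, as on Sash1-ko 3. The 12 leukocyte and macrophage markers, also all measured, averaged 5.22 to 5.76 and 4.63 to 5.51, again lowest on Sash1-ko 4. Wild-type 1 and Sash1-ko 3 were high for Gclc and for the averages of these lists, and Sash1-ko 4 was low for both. However, Sash1-ko 1 was high for the stress genes and not for Gclc. The 10 fibroblast and mural markers followed Gclc only in part. Their average was lowest on Sash1-ko 4 (6.93), but highest on Sash1-ko 1 (7.68), and it was 7.09 on wild-type 1. Array signals have no true zero, so none of these markers can be called absent, and their part in the Gclc values was not tested. In sorted populations measured in bulk, fewer cells of a type and less RNA per cell cannot be told apart.

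Txnrd1 and Srxn1 keep the thiol peroxidases running: thioredoxin reductase 1 passes electrons from NADPH to thioredoxin, and sulfiredoxin 1 restores overoxidised peroxiredoxins. Txnrd1 measured 6.25, 6.18 and 6.13 in the samples labelled wild-type and 5.99, 6.34, 6.13 and 6.18 in those labelled Sash1-ko. The 2 extremes were both Sash1-ko arrays, and the wild-type values lay between them within 0.12 log2 units. The Txnrd1 difference was -0.03 (SE 0.10, interval -0.27 to 0.21, limma adjusted p = 0.995), turning to 0.01 without wild-type 1 and 0.03 without Sash1-ko 1 or with median centring.

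Srxn1 measured 5.25, 5.01 and 4.61 in the samples labelled wild-type and 4.93, 4.93, 5.15 and 5.01 in those labelled Sash1-ko. Wild-type 1 was the highest array and wild-type 3 the lowest, with all Sash1-ko values between. Its difference of 0.05 (SE 0.16, interval -0.32 to 0.42, limma adjusted p = 0.994) was 0.19 without wild-type 1 and -0.13 without wild-type 3, and -0.17 without wild-type 3 and Sash1-ko 3.

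Sod1 and Sod2 encode the cytosolic copper-zinc and the mitochondrial manganese superoxide dismutases, which turn superoxide into hydrogen peroxide. Sod1 measured 11.38, 11.30 and 11.12 in the samples labelled wild-type and 11.22, 11.16, 11.35 and 11.38 in those labelled Sash1-ko. The highest value of each label was the same, and the range over all arrays was 0.26. Its difference was 0.01 (SE 0.10, interval -0.23 to 0.25, limma adjusted p = 1.0), or 101% of the wild-type level with bounds of 85.3% and 119%. The sign turned without wild-type 3 (-0.06), Sash1-ko 3 (-0.01) or Sash1-ko 4 (-0.02) and with quantile normalization (-0.01).

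Sod2, which inflammatory signals induce in endothelium, measured 7.26, 6.73 and 6.57 in the samples labelled wild-type and 6.74, 7.11, 7.25 and 6.98 in those labelled Sash1-ko. Wild-type 1 was as high as Sash1-ko 3, while wild-type 2 and 3 lay below every Sash1-ko array, wild-type 2 by 0.01 only. The difference was 0.17 (SE 0.19, interval -0.29 to 0.62, limma adjusted p = 0.971). Leaving out wild-type 1 gave 0.37 and leaving out wild-type 3 gave 0.03, and with wild-type 3 and Sash1-ko 3 both left out it was -0.05.

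Cat encodes catalase, the peroxisomal enzyme that breaks down hydrogen peroxide, and it had the smallest unadjusted p of the 10 genes. Its log2 signal was 8.14, 8.28 and 8.51 in the samples labelled wild-type and 8.54, 8.75, 8.46 and 8.57 in those labelled Sash1-ko. Only wild-type 3 and Sash1-ko 3, the arrays whose Sash1 values went against their labels, crossed over. The difference was 0.27 (SE 0.12, interval -0.01 to 0.55), or 121% of the wild-type level with bounds of 99.3% and 146%. The unadjusted p was 0.0566 and the adjusted p 0.971 in limma, and the exact two-sided permutation test over 35 splits of the arrays gave p = 0.0857, where the smallest possible value is 0.0286. Without wild-type 3 and Sash1-ko 3 the difference was 0.41 (interval 0.12 to 0.70, adjusted p = 0.333), and leaving out 1 array at a time gave 0.18 to 0.37. Cat and Gclc were the 2 genes of the 10 whose sign no alternative turned.

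**Figure D2:**
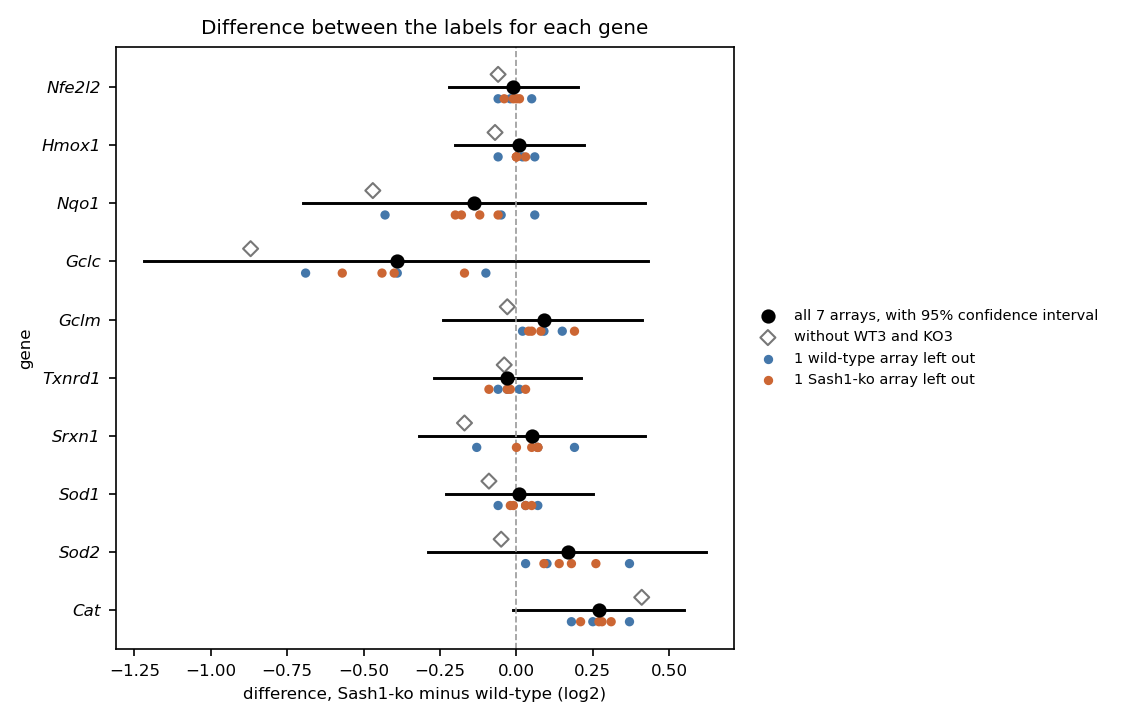
Difference between the labels for each gene (Sash1-ko minus wild-type, log2; the dashed line marks 0). Black points and bars are the fit to all 7 arrays with its 95% confidence interval, small points the estimates with 1 array left out (coloured by the label of that array) and diamonds those without wild-type 3 and Sash1-ko 3; all 10 bars cross 0, and the diamonds of 9 genes lie below 0 with that of Cat at 0.41.

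Single arrays stood out across the group. Wild-type 3 was the single lowest array for 6 of the 10 genes (Nfe2l2, Hmox1, Nqo1, Srxn1, Sod1 and Sod2), whereas it was lowest for 16.3% of all genes tested. Wild-type 1 was the single highest array for 5 (Nfe2l2, Hmox1, Gclc, Srxn1 and Sod2), against 15% of all genes, and was lowest for Cat. The fit without wild-type 3 and Sash1-ko 3 was chosen after seeing the data. Leaving out wild-type 3 by itself lowers the difference of each gene for which it was the lowest array. The counts of that fit are therefore no separate result on these genes. Without wild-type 3 and Sash1-ko 3, 9 of the 10 differences were negative, beside 48.2% of all genes tested, with a median of -0.06 against 0.01. In that fit 3 of the 10 (Nqo1, Gclc and Cat) had an unadjusted p under 0.05, beside 10.7% of all genes, and limma called 0 of the 16637. Some marker lists moved in the same fit and others did not. Medians were -1.38 for the immediate early and stress genes (13 of 14 negative), -0.70 for lung epithelial markers (12 of 12) and -0.59 for leukocyte markers (12 of 12). They were 0.03 for endothelial markers (6 positive, 4 negative), -0.01 for fibroblast and mural markers (5 positive, 5 negative) and -0.03 for the 2 erythroid markers tested. The part of these markers in the shift of the 10 genes was not tested.

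**Figure D3:**
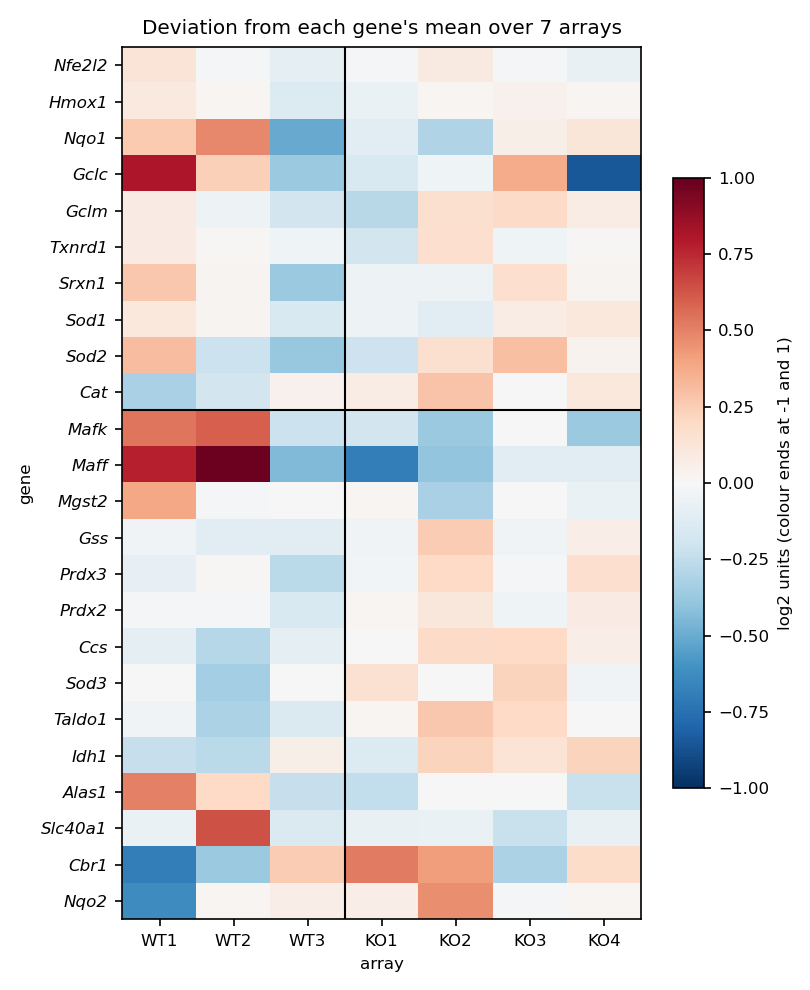
Deviation of each array's log2 signal from the gene's mean over 7 arrays, for the 10 genes (above the line) and the 14 genes named from the wider lists (below it); columns are the arrays labelled wild-type (WT1 to WT3) and Sash1-ko (KO1 to KO4). Gclc and Maff show the strongest colours, WT3 lies below the mean in 9 of the upper 10 rows, and Nfe2l2 and Hmox1 stay pale throughout.

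Transcripts of NRF2 regulators, partners and relatives were examined next. Of 10 listed regulators and partners 9 were tested, 0 were called, 3 differences were positive and 6 negative, and the median was -0.13. Without wild-type 3 and Sash1-ko 3 the median was -0.24, again with 3 positive and 6 negative. Keap1, the adaptor that targets NRF2 for degradation, differed by 0.03 (interval -0.30 to 0.36; -0.12 without wild-type 2) and Cul3, the ubiquitin ligase scaffold it works with, by -0.13. The repressor gene Bach1 differed by 0.19 (0.35 without wild-type 3) and Nfe2l1, a relative of Nfe2l2, by 0.07.

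The small MAF genes Maff and Mafk, whose products pair with NRF2, gave the widest differences of that list. Mafk measured 6.48, 6.54 and 5.73 in the samples labelled wild-type and 5.76, 5.57, 5.94 and 5.57 in those labelled Sash1-ko. Maff measured 6.88, 7.08 and 5.66 against 5.41, 5.71, 5.99 and 5.99. In both genes wild-type 1 and 2 stood above every other array, and wild-type 3 lay among the Sash1-ko arrays. Mafk differed by -0.54 (SE 0.21, interval -1.04 to -0.04, unadjusted p = 0.0384, limma adjusted p = 0.971) and Maff by -0.76 (SE 0.35, interval -1.58 to 0.05, adjusted p = 0.971). Without wild-type 3 and Sash1-ko 3 these were -0.88 (adjusted p = 0.244) and -1.28 (adjusted p = 0.254), and without wild-type 2 they were -0.40 and -0.50. The third member, Mafg, differed by -0.13 (-0.01 without wild-type 2). The average of the immediate early and stress genes was also high on wild-type 1 and 2 and low on wild-type 3, although Ier3 of that list was highest of the wild-type arrays on wild-type 3 (10.11). On Sash1-ko 3 that average was high while Mafk and Maff stayed below wild-type 1 and 2. On Sash1-ko 1 it was 8.69, where Maff had its lowest value. The part of the immediate early genes in the Mafk and Maff values was not tested.

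Glutathione genes beyond the ligase showed no common direction. Of 20 listed, 19 were tested, 0 were called, 10 differences were positive and 9 negative, and the median was 0.02, which ran from -0.09 without wild-type 3 to 0.13 without wild-type 1. Gss, the second enzyme of glutathione synthesis, differed by 0.15 (interval -0.08 to 0.38; 0.08 without Sash1-ko 2), and Mgst2, a microsomal glutathione transferase, by -0.21 (interval -0.54 to 0.11; -0.09 without wild-type 1). Slc7a11, the cystine transporter that is another common NRF2 readout, lay between 2.88 and 3.73 on all arrays and differed by -0.02 (-0.21 without wild-type 3, 0.21 without wild-type 1). Gsr, which regenerates reduced glutathione, differed by 0.10, and the lipid peroxide reductase gene Gpx4 by 0.03.

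Thioredoxin and peroxiredoxin genes were close to 0 as a list. Of 13 listed, 10 were tested and 0 called, with 3 positive and 7 negative differences, a median of -0.04 and a range from -0.07 to 0.20. The mitochondrial peroxiredoxin gene Prdx3 was at the upper end, at 0.20 (interval -0.06 to 0.45; 0.12 without wild-type 3), followed by Prdx2 at 0.10 (interval -0.10 to 0.30; 0.05 without wild-type 3). Txn1, the substrate of thioredoxin reductase 1, differed by -0.01.

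Around the superoxide dismutases, Ccs, the copper chaperone that loads Sod1 with copper, was free of overlap between the labels. It measured 6.59, 6.39 and 6.59 in the samples labelled wild-type and 6.68, 6.87, 6.88 and 6.74 in those labelled Sash1-ko. Each Sash1-ko array, Sash1-ko 3 included, was above each wild-type array. The difference was 0.27 (SE 0.10, interval 0.04 to 0.50), with an unadjusted p of 0.0265 and a limma adjusted p of 0.971, and the exact permutation p was 0.0286, the smallest that 35 splits allow. The extracellular dismutase gene Sod3 differed by 0.20 (interval -0.09 to 0.48; 0.08 without wild-type 2). Of the NADPH oxidase genes, which make superoxide, Nox4 differed by -0.17 (-0.07 without Sash1-ko 2). Cybb, an oxidase subunit abundant in phagocytes, differed by -0.59 (interval -1.52 to 0.34), and by -0.21 without Sash1-ko 4, where it was at 3.19 against 4.53 to 4.85 on the other Sash1-ko arrays. That array was also lowest for the average of the leukocyte markers, but not for each of them: Mrc1, at 5.81, had its highest Sash1-ko value there. Ncf1, another oxidase subunit gene of the list, was highest on that array, at 4.63. The part of the leukocyte markers in the Cybb value was not tested. Of 7 genes listed for superoxide handling and production, 6 were tested and 0 called, 4 positive and 2 negative, with a median of 0.13 that was 0.03 without wild-type 3 and 0.06 with array weights.

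NADPH feeds the glutathione and thioredoxin systems, and Taldo1, a pentose phosphate enzyme, also had no overlap between the labels. It measured 7.71, 7.43 and 7.60 in the samples labelled wild-type and 7.77, 8.02, 7.95 and 7.75 in those labelled Sash1-ko. The gap was narrow, at 0.04 log2 units between the highest wild-type and the lowest Sash1-ko array. Its difference was 0.29 (SE 0.11, interval 0.03 to 0.55, unadjusted p = 0.0333, limma adjusted p = 0.971), and that of Idh1, an isocitrate dehydrogenase, was 0.26 (interval -0.05 to 0.57). Of the 6 NADPH genes listed, 4 were tested and 0 called. All 4 differences were positive (median 0.23), where 8969 of all 16637 genes tested were positive. Me1, at 0.21, turned to -0.03 without wild-type 3. Without wild-type 3 and Sash1-ko 3, 3 of the 4 were positive and 1 negative, with a median of 0.28.

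Haem breakdown by Hmox1 releases iron and biliverdin, and the genes listed for haem, biliverdin and iron handling had a median of -0.04, with 7 of 8 tested, 0 called, 2 positive and 5 negative. The median was -0.15 without wild-type 3, 0.03 without Sash1-ko 4 and -0.23 (1 positive, 6 negative) when wild-type 3 and Sash1-ko 3 were both left out. Alas1, the first enzyme of haem synthesis, differed by -0.27 (interval -0.69 to 0.15), by -0.10 with wild-type 1 left out and by -0.51 (interval -0.89 to -0.13, limma adjusted p = 0.348) with wild-type 3 and Sash1-ko 3 left out. Slc40a1, the iron exporter, differed by -0.25 (interval -0.70 to 0.20; -0.01 without wild-type 2). Hmox2, the constitutive haem oxygenase, differed by -0.01. Among 8 other NRF2 targets, all tested and 0 called, 3 differences were positive and 5 negative, and the median was -0.03. The carbonyl reductase gene Cbr1 differed by 0.47 (interval -0.18 to 1.12), by 0.26 with wild-type 1 left out and by 0.90 (interval 0.48 to 1.32, limma adjusted p = 0.266) with wild-type 3 and Sash1-ko 3 left out. The quinone reductase gene Nqo2 differed by 0.32 (interval -0.16 to 0.80), and by 0.09 without wild-type 1.

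Over the 7 wider lists together, 63 of 72 genes were tested and 0 were called. Differences were positive for 29 and negative for 34, and their median was -0.02 beside 0.02 for all genes tested. An unadjusted limma p under 0.05 was reached by 3 of the 63 (Mafk, Ccs and Taldo1), beside 3.34% of all genes tested. With wild-type 3 and Sash1-ko 3 left out, 10 of the 63 (15.9%) reached it, beside 10.7% of all genes, 38 differences were negative (60.3%), the median was -0.10, and 0 were called. The labels did not overlap in 2 genes (Ccs and Taldo1), or 3.17%, against 2.45% of all genes tested, a share near the background.

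**Figure D4:**
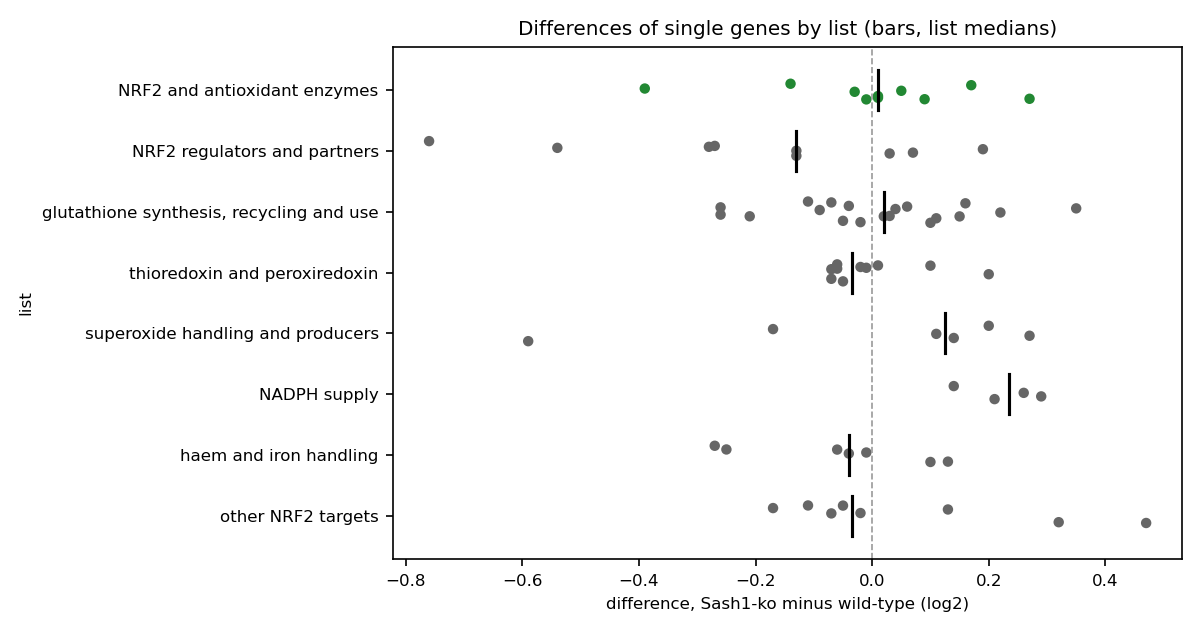
Differences between the labels (Sash1-ko minus wild-type, log2) of single genes, by list, with the 10 NRF2 and antioxidant enzyme genes in green on top; each point is 1 tested gene, vertical scatter within a list has no meaning and bars mark list medians. Medians run from -0.13 for NRF2 regulators and partners to 0.23 for NADPH supply, and none of the genes shown was called.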

How the data were processed

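The authors deposited log2 RMA signals for 41345 probe sets on 7 one-colour arrays; RMA and Affymetrix Expression Console 1.1 are named per the submitters' processing notes, and their range fits a log2 scale. Probe sets were named through GEO's platform annotation, updated through RefSeq (GRCm38.p6): 23521 had 1 symbol, 1814 several and 16010 none listed. The brightest probe set stood for a gene and the dimmest 25% of genes were left out. Labels were compared with limma 3.58.1 (lmFit, eBayes; R 4.3.3), genotype the only term, two-sided, Benjamini-Hochberg over 16637 genes, called under 0.05; the code was tested on simulated data. Single genes also had an exact permutation test. The members and lists were chosen with earlier results of these data known. Besides the members, Sash1, Pecam1, Ptprc and Epcam, the text names the 2 genes of smallest unadjusted p in each wider list and, for Nfe2l2 and Hmox1, the 3 closest profiles; other list genes are named for their role, chosen after their values were seen. Replicate numbers were not used to pair the arrays, since the labels do not say what a shared number stands for. Deviations of same-numbered arrays correlated at -0.18, -0.20 and -0.55, which cannot show whether the samples were paired. No reads lie behind array values, so the number of arrays limits the precision.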

Additional observations from a re-analysis of the deposited data

Results flagged for a closer look

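On the 4 arrays labelled Sash1-ko, 4 of 28 genes examined had an array set apart from the other 3 (its gap to the nearest, as a share of the whole range, was above Dixon's 95% critical value, which chance gives in about 1 of 20 groups). Ptprc was at 3.51 on Sash1-ko 4 against 4.57 to 4.72, and Epcam at 4.06 on the same array against 5.14 to 5.19. Nqo2 was at 6.68 on Sash1-ko 2 against 6.20 to 6.28. Slc40a1 was at 3.96 on Sash1-ko 3 against 4.11 to 4.12. None of the 10 NRF2 and antioxidant enzyme genes was set apart in this way.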

How the results depend on the processing

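Of 169 values of the 10 genes under alternatives, 0 had an adjusted p under 0.05 (lowest 0.333, Cat without wild-type 3 and Sash1-ko 3) and 25 turned sign; Nqo1 had no value with the dimmest 50% of genes left out, and single other probe sets could not be tried because each gene has 1. With 1 array left out, or with wild-type 3 and Sash1-ko 3 both left out (chosen after seeing the data), the differences ran from -0.06 to 0.05 for Nfe2l2, -0.07 to 0.06 for Hmox1, -0.47 to 0.06 for Nqo1, -0.03 to 0.19 for Gclm, -0.09 to 0.03 for Txnrd1, -0.17 to 0.19 for Srxn1, -0.09 to 0.07 for Sod1 and -0.05 to 0.37 for Sod2. Median centring gave Nfe2l2 0.05 and Txnrd1 0.03, quantile normalization gave Sod1 -0.01, and array weights gave Hmox1 -0.02, Srxn1 -0.01 and Sod1 -0.01. The cause of these turns was not tested. With the replicate number as a fixed replicate block Nfe2l2 was 0.01 and Sod1 -0.02. Genes with an unadjusted p under 0.05, 556 in the comparison, numbered 225 with the fixed and 367 with the random replicate block, 1310 with array weights, 295 to 1314 with 1 array left out and 1779 without wild-type 3 and Sash1-ko 3. Limma called 0 genes under every alternative, also at an adjusted p of 0.1.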

Other observations

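The genes whose array-centred log2 profiles lay closest to that of Nfe2l2 over the 7 arrays were Cacfd1, Pdcd2l and Prrc1, at root mean square distances of 0.031, 0.033 and 0.035 log2 units, beside a median of 0.19 over the genes compared. For Hmox1 they were St6galnac6, Tmod3 and Mrpl21, at 0.023, 0.030 and 0.031. All 6 differed between the labels by 0.04 log2 units or less in size. That follows from their choice by closeness to Nfe2l2 and Hmox1, which themselves hardly differed.

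The letters TGACNNNGC were also found next to a start in 10 of 57 tested genes of the wider lists with a promoter window. These were Abcc4, Blvra, Maff, Mafg, Mafk, Me1, Mgst1, Pgd, Sesn2 and Ugdh. Of all promoter windows, 12.4% held the letters, and a gene with several windows has more chances of a match. Whether 10 of 57 genes exceeds that background was not tested.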
